A study of Mus musculus with 6 samples.

Results

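RNA levels of 10 genes of the mesenchymal transition programme were examined in endothelial cells isolated from the mouse retina, in pups with and without Cre recombinase acting on Smad4. The genes were chosen by symbol and not by their levels: the transcription factors Snai1, Snai2, Twist1, Zeb1 and Zeb2, and the marker genes Cdh2, Fn1, Vim, S100a4 and Cd44. All 10 had a row among the 24421 genes of the count table. The Smad4-iECKO pups carried floxed Smad4 and Cdh5-CreERT2, a Cre driven by the VE-cadherin promoter that becomes active with tamoxifen. The Smad4f/f pups carried the floxed gene without Cre. All pups were of a mixed BL6/CD1 background, tamoxifen was injected at postnatal day 1, and the cells were collected at postnatal day 7. There were 3 samples per group, and whether pups were pooled is not stated in the labels. The p-values therefore cover only the variation among these 6 samples, part of which may be technical.

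In an epithelial or endothelial to mesenchymal transition, cells loosen their junctions and take on the shape, matrix and motility of mesenchymal cells. TGF-beta and BMP receptors act through receptor SMADs, which join SMAD4 to regulate genes, and the SNAIL, TWIST and ZEB factors are among the genes known to respond to TGF-beta. These factors bind E-box sequences in DNA and repress junction genes such as the cadherin gene Cdh1. The markers are the adhesion molecule N-cadherin (Cdh2), the matrix protein fibronectin (Fn1), the intermediate filament vimentin (Vim), the calcium-binding protein S100A4 and the hyaluronan receptor CD44. Several of these genes are also known from cells of the retina other than mesenchymal ones: vimentin from Mueller glia and endothelium, CD44 from glia, and ZEB2 from neurons and microglia.

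The libraries differed in depth and in make-up. Total counts ran from 12633018 to 23164952 in Smad4f/f and from 2233360 to 17677696 in Smad4-iECKO. The lowest total was that of Smad4-iECKO replicate 2, where 3 counts correspond to 1.39 CPM, against 0.123 to 0.239 CPM elsewhere. CPM are counts divided by the library total after its adjustment by TMM scaling, on a scale common to all libraries. The 15 endothelial markers were all detected in every library, with a summed level of 1687 to 8807 CPM in Smad4f/f and 2980 to 5640 CPM in Smad4-iECKO. The 11 rod photoreceptor markers summed to more than the endothelial markers in 5 of 6 libraries, so the RNA was not from endothelial cells alone. Smad4 itself lay at 109.5 to 157.5 CPM in Smad4f/f and 93.9 to 133.9 CPM in Smad4-iECKO. Its log2 fold change was -0.24 (standard error 0.29, edgeR, Smad4-iECKO over Smad4f/f). Counts are per gene, so any reads from exons that remain after deletion would be included, and so would Smad4 reads of other cells. The level of Smad4 therefore checks no label. Sample titles begin with Lit38 (4 libraries, replicates 1 and 3 of each group) or Lit40 (replicate 2 of each group), called prefix 38 and prefix 40 here. The labels do not say what these prefixes mean.

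Promoter sequences were at hand for 6 of the 10 genes, as the 250 bases before each start in RefSeq annotation of GRCm38.p6. They were searched on both strands for the E-box CACCTG, the BMP-type SMAD element GGCGCC and the SMAD element CAGAC, whose letters overlap in none of the hits found. The windows of Snai1 (chr2:167537945-167538194, + strand), Twist1 (chr12:33957421-33957670, + strand) and Cd44 (chr2:102901666-102901915, - strand) are shown, since Snai1 and Cd44 had the lowest and the highest fitted difference between the groups and Twist1 had a SMAD element close to its start. Each runs 5′ to 3′ in the direction of transcription, and capitals mark a motif.
Snai1: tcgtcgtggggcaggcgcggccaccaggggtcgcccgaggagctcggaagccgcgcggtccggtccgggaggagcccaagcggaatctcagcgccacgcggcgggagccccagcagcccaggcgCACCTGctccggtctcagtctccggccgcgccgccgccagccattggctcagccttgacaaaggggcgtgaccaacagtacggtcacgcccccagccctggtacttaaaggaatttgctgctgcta
Twist1: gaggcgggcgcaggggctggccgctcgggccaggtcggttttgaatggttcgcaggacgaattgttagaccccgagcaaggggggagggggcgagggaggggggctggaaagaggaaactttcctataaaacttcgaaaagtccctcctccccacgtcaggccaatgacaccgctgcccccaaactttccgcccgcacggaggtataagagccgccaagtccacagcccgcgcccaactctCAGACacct
Cd44: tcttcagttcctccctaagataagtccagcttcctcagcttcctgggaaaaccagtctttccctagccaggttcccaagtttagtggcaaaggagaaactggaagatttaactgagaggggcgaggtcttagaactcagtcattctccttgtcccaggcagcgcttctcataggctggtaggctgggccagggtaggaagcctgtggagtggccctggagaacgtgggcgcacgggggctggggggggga
Snai1 had a CACCTG whose first base lay 126 bases before the start, Twist1 had a CAGAC 9 bases before the start, and the Cd44 window had none of the 3 motifs. Of the 9 promoter windows of the 6 genes (Zeb2 has 4 starts, some of which overlap), 1 held CACCTG, 2 held CAGAC (Twist1 and S100a4) and 0 held GGCGCC. Among 32851 promoter windows of the same length 17.2% held CACCTG, 42.2% held CAGAC and 9.59% held GGCGCC. A match describes letters and not a bound site.

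None of the 10 genes was called between Smad4-iECKO and Smad4f/f, and the libraries of the groups overlapped in level for each of them. Of the 9 genes with enough counts to be tested, 0 were called by edgeR's quasi-likelihood test at an adjusted p under 0.05, beside 0 of all 14362 genes tested (0.00%). At an unadjusted p under 0.05 there were 0 of the 9 genes, beside 188 genes (1.31%). The smallest unadjusted p belonged to Cdh2 (0.199), and the adjusted p was 0.99991 for all 9. DESeq2, run as an alternative, called 12 of 19645 genes (0.0611%) and 0 of the 10. The 3 Smad4-iECKO levels lay entirely above or below the 3 Smad4f/f levels for 0 of the 9 genes, beside 763 of all genes tested (5.31%, of which 2.49% above and 2.83% below). In bulk RNA, fewer cells of a type and less RNA per cell cannot be told apart, and this holds for each level given here.

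**Figure D1:**
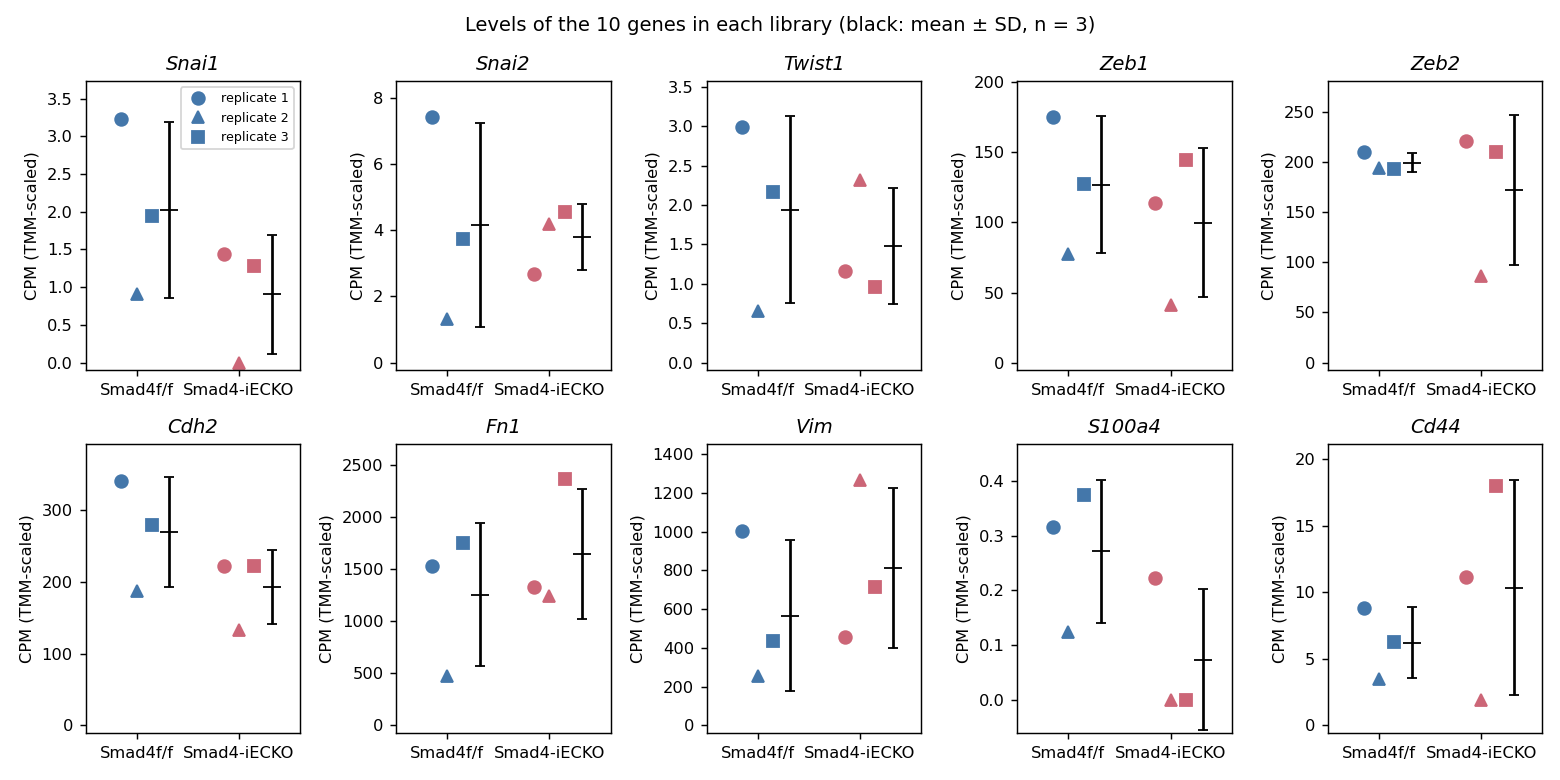
Level of each of the 10 genes in each library, in TMM-scaled CPM on an axis that includes 0; circles, triangles and squares are replicates 1, 2 and 3, and black bars are the mean ± SD of 3 libraries. The groups overlap in every panel, and replicate 2 is the lowest Smad4f/f library in all panels but that of Zeb2.

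Snai1, Snai2 and Twist1, the small SNAIL and TWIST factors, were at low levels, from 0 to 7.41 CPM. Snai1 (chromosome 2, 167538195 to 167542814, mm10, + strand) was at 3.23, 0.905 and 1.95 CPM in Smad4f/f replicates 1, 2 and 3 and at 1.44, 0 and 1.28 CPM in Smad4-iECKO replicates 1, 2 and 3. Mean levels were 2.03 ± 1.17 CPM and 0.907 ± 0.790 CPM (SD, n = 3 per group), and edgeR's log2 fold change was -0.91 (standard error, SE, 0.91). Only Smad4f/f replicates 1 and 3 lay above all Smad4-iECKO libraries. The 0 counts of Smad4-iECKO replicate 2 allow a level of up to 1.39 CPM, which covers Smad4f/f replicate 2, so no difference was detectable between the prefix 40 libraries.

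Snai2, which encodes SLUG, was the most abundant of the 3 per base of exon. This gene (chromosome 16, 14705852 to 14709385, + strand) was at 7.41, 1.32 and 3.74 CPM in Smad4f/f and at 2.67, 4.18 and 4.54 CPM in Smad4-iECKO. Both the highest and the lowest library were Smad4f/f, with all 3 Smad4-iECKO libraries between them. Its log2 fold change was -0.14 (SE 0.71), and the direction turned in 6 of 19 alternative fits, among them scaling to the endothelial markers (0.21). Twist1, a basic helix-loop-helix factor gene (chromosome 12, 33957671 to 33959829, + strand), was at 2.996, 0.658 and 2.169 CPM in Smad4f/f and at 1.17, 2.32 and 0.957 CPM in Smad4-iECKO. Its log2 fold change was -0.50 (SE 0.83). The level of 2.32 CPM in Smad4-iECKO replicate 2 rests on 5 counts, with an exact Poisson 95% interval of 0.755 to 5.42 CPM that spans nearly the whole range of the other libraries (counting error only).

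The zinc finger and homeodomain factors Zeb1 and Zeb2 were far more abundant. Zeb1, on chromosome 18, was at 176, 77.7 and 128 CPM in Smad4f/f and at 114, 40.9 and 145 CPM in Smad4-iECKO. For Zeb1 the log2 fold change was -0.34 (SE 0.48). Smad4-iECKO replicate 2 was the lowest library, and without it the log2 fold change was 0.0037. Zeb2 (chromosome 2, 44983632 to 45117395, - strand) was at 210.4, 195 and 193 CPM in Smad4f/f, the narrowest spread of all 10 genes in that group. It was at 221, 86.5 and 210.6 CPM in Smad4-iECKO. For Zeb2 the log2 fold change was -0.20 (SE 0.37), and it was 0.09 without Smad4-iECKO replicate 2. The library kit does not mark strand, and 653 exon bases of Zeb2 are shared with the antisense gene Zeb2os and 198 of Zeb1 with Gm10125, so reads from these pairs cannot be told apart there (nor on 292 bases that Fn1 shares with Apol7d).

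Cdh2, the gene of N-cadherin, had a lower mean in Smad4-iECKO and the smallest standard error of the 9 tested genes. This gene, also on chromosome 18, was at 341, 188 and 279.7 CPM in Smad4f/f and at 223.1, 133 and 223.1 CPM in Smad4-iECKO. Smad4f/f replicate 2 lay below Smad4-iECKO replicates 1 and 3, so the groups overlapped. Mean levels were 269.6 ± 77.2 CPM and 193 ± 51.8 CPM (SD, n = 3 per group), and its log2 fold change was -0.48 (SE 0.35, edgeR, unadjusted p = 0.199). Within prefix 38 the log2 ratio of the group means was -0.48, and within prefix 40 the ratio of the 1 library to the other was -0.49. Cdh2 was the gene whose values in the 2 prefixes lay closest together.

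For this comparison the authors' deposited table listed Cdh2 as the 1 gene of the 10 with an adjusted p under 0.05. There, 1905 of 14225 genes (13.4%) were called, and 810 (5.69%) were called lower. The authors' deposited table gave Cdh2 a log2 fold change of -0.44, a p-value of 0.00609 and an adjusted p of 0.0470. The count table holds 3 columns per sample, and the 3 were identical in every gene for all 6 samples. DESeq2 run on all 18 columns as if each were a sample gave Cdh2 a p-value of 0.00602 and an adjusted p of 0.0499, with 2235 of 19650 genes called (11.4%, lower 4.51%). With 1 column per sample DESeq2 gave Cdh2 a p-value of 0.222 and an adjusted p of 0.9996. The log2 fold change was -0.47 in both of these fits, and its standard error was 0.17 with 18 columns and 0.39 with 6. Columns that repeat a sample add no information on the spread between samples. How the authors' fit was set up is not given in the sources used here. Snai1 and Cd44 had the next smallest p-values in the authors' deposited table (0.0256 and 0.0518), with adjusted p of 0.117 and 0.178, and S100a4 had no adjusted p there.

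Fn1 and Vim were the most abundant of the 10 genes, and both had higher means in Smad4-iECKO with wide overlap. Fn1 (chromosome 1, 71585520 to 71653200, - strand) was at 1535, 471 and 1757 CPM in Smad4f/f and at 1327, 1242 and 2367 CPM in Smad4-iECKO. The highest library was Smad4-iECKO replicate 3 and the lowest Smad4f/f replicate 2. Its log2 fold change was 0.39 (SE 0.53), and without Smad4f/f replicate 2 it was -0.0037. Vim (chromosome 2, 13573927 to 13582826, + strand) was at 1005, 256 and 437 CPM in Smad4f/f and at 454, 1268 and 715 CPM in Smad4-iECKO. The prefix 40 libraries were thus the lowest and the highest of all 6, and the prefix 38 libraries lay between them. The log2 fold change of Vim was 0.52 (SE 0.56), and 0.02 without Smad4-iECKO replicate 2. The summed endothelial markers of the prefix 40 libraries stood at 1687 CPM in Smad4f/f and 5640 CPM in Smad4-iECKO, and the pericyte and smooth muscle markers at 630.3 and 2090.3 CPM. Their part in the difference of Vim was not tested.

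S100a4, often called fibroblast-specific protein, was barely detected. This gene (chromosome 3, 90603771 to 90606045, + strand) had 4, 3 and 5 counts in Smad4f/f and 4, 0 and 0 counts in Smad4-iECKO, and did not pass the filter on low counts. Its level was at most 0.374 CPM in any library. The 0 counts allow up to 0.239 CPM in Smad4-iECKO replicate 3 and up to 1.39 CPM in replicate 2, so a difference was not detectable at this depth. In GENCODE M21, 302 of its exon bases are shared with Gm42674, a gene on the same strand. The 10 fibroblast markers summed to 109.5 to 438 CPM in Smad4f/f and to 304 to 795 CPM in Smad4-iECKO, with 3 to 6 of them at 0 in each library. The matrix genes Lum and Dpt were at 0 in all 6 libraries and Dcn in 5, while Pdgfra, which astrocytes also express, ran from 57.2 to 387 CPM. Of the 6 fibroblast markers tested the median log2 fold change was 0.92. The collagen genes Col1a1 and Col1a2 were the 2 higher in every Smad4-iECKO library, beside 2.49% of all genes.

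Cd44 had the largest positive log2 fold change of the 9 tested genes. This gene (chromosome 2, 102811141 to 102901665, - strand) was at 8.83, 3.50 and 6.28 CPM in Smad4f/f and at 11.2, 1.86 and 17.9 CPM in Smad4-iECKO, so the Smad4-iECKO libraries held both the highest and the lowest value. Mean levels were 6.20 ± 2.67 CPM and 10.3 ± 8.07 CPM (SD, n = 3 per group), for a log2 fold change of 0.79 (SE 0.70, edgeR, unadjusted p = 0.288). It was 0.16 with Smad4-iECKO replicate 3 left out and 1.21 with replicate 2 left out. Both prefix 38 Smad4-iECKO libraries lay above both prefix 38 Smad4f/f libraries, while in prefix 40 the log2 ratio was -0.91. The 1.86 CPM of Smad4-iECKO replicate 2 rests on 4 counts, and its exact Poisson 95% interval of 0.507 to 4.76 CPM includes the level of Smad4f/f replicate 2. That interval lies below all 4 prefix 38 libraries. The microglia and macrophage markers summed to 38.5 to 68.1 CPM in Smad4f/f and 89.2 to 138 CPM in Smad4-iECKO, with P2ry12, C1qa and Fcgr3 at 0 in Smad4-iECKO replicate 2 and none of the 14 at 0 elsewhere. Of those 14 markers 13 had positive log2 fold changes, 6 were higher in every Smad4-iECKO library (beside 2.49% of all genes), 3 had an unadjusted p under 0.05 (beside 1.31%) and 0 were called by edgeR. The 7 astrocyte markers summed to 117 to 424 CPM in Smad4f/f and 197 to 731 CPM in Smad4-iECKO, with none at 0. The highest sum was in Smad4-iECKO replicate 3, where Cd44 was highest too. Of that sum 387 CPM was Pdgfra, and Pdgfra was 247 of the 424 CPM in Smad4f/f replicate 1. This gene is also in the fibroblast list, so the sum is not a measure of astrocytes alone. The part of microglia, macrophages and astrocytes in the level of Cd44 was not tested.

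Per kilobase of exon, Vim and Fn1 led the 10 genes, with mean levels over the 6 libraries of 145 and 124 CPM per kb. Their ranges over libraries overlapped almost fully (54.0 to 267 and 40.3 to 203 CPM per kb). Cdh2 followed at 28.7 CPM per kb, above Zeb1 (11.05) and Zeb2 (9.33), 2 factors whose ranges overlapped. The remaining genes lay far lower, at 1.97 CPM per kb for Snai2, 1.22 for Cd44, 1.052 for Twist1, 0.905 for Snai1 and 0.295 for S100a4. The ranges of neighbours in this last group overlapped in each case. Exon lengths are the union over all GENCODE M21 transcripts of a gene, and a gene with many unused exons, such as Zeb2 with 19942 bases, may be set too low by this scale.

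**Figure D2:**
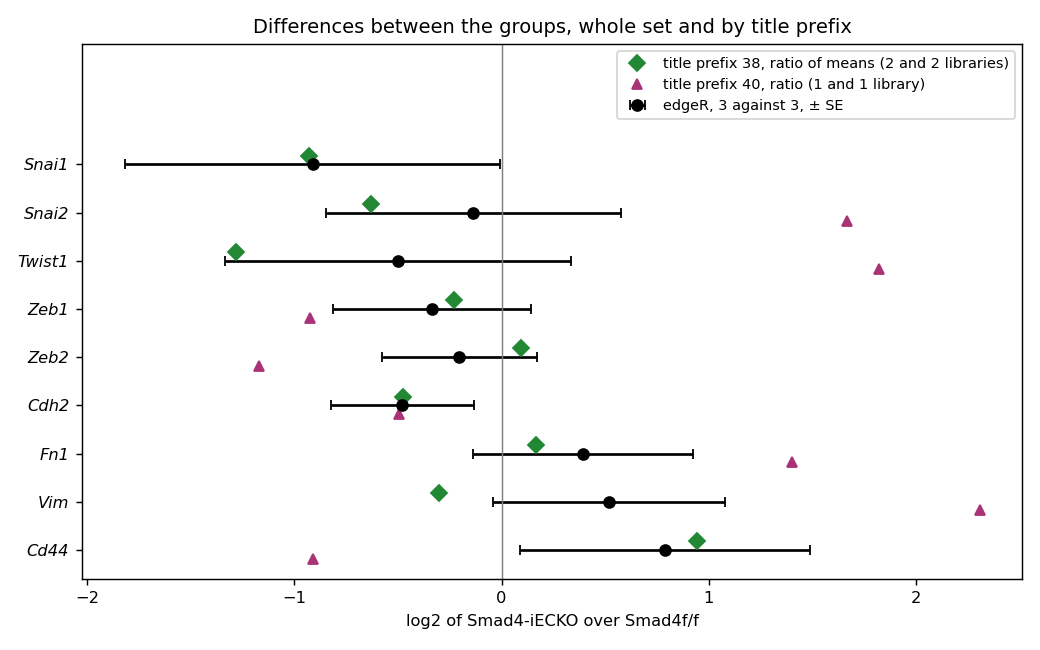
Log2 of Smad4-iECKO over Smad4f/f for the 9 tested genes: black points are edgeR log2 fold changes over 6 libraries with bars of ± 1 standard error, green diamonds the ratio of mean CPM within title prefix 38, and purple triangles the ratio within title prefix 40, where Snai1 has no point because 1 library had 0 counts. The triangles lie apart from the diamonds for all genes but Cdh2, and the gap is widest for Twist1 (1.82 against -1.28).

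The 9 tested genes had 3 positive and 6 negative log2 fold changes, with a median of -0.20, beside a median of -0.017 over all genes tested. The median of these genes was above 0 in some alternatives, at 0.089 with limma-voom and sample weights (6 of 9 positive) and at 0.098 over the 6 genes still tested after thinning to the smallest library. By title prefix the picture differed from gene to gene. Within prefix 38 the log2 ratio of group means was 0.95 for Cd44 and 0.17 for Fn1, and it was -1.28 for Twist1, -0.93 for Snai1 and -0.63 for Snai2. In that subset the groups did not overlap for 4 of the 9 genes, Cd44 being higher and Snai1, Twist1 and Cdh2 lower in both Smad4-iECKO libraries, beside 31.0% of 14600 genes (15.4% above, 15.5% below). No gene of the 10 was called by edgeR there (Cd44 had the smallest unadjusted p, 0.0653). Within prefix 40 the log2 ratio was 2.31 for Vim, 1.82 for Twist1, 1.67 for Snai2 and 1.399 for Fn1, and it was -1.17 for Zeb2, -0.92 for Zeb1 and -0.91 for Cd44. Twist1, Snai2, Vim, Zeb2 and Cd44 thus had opposite signs in the 2 prefixes. The prefix 40 ratio compares 1 library with 1 library, and the difference between the prefixes was not tested.

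**Figure D3:**
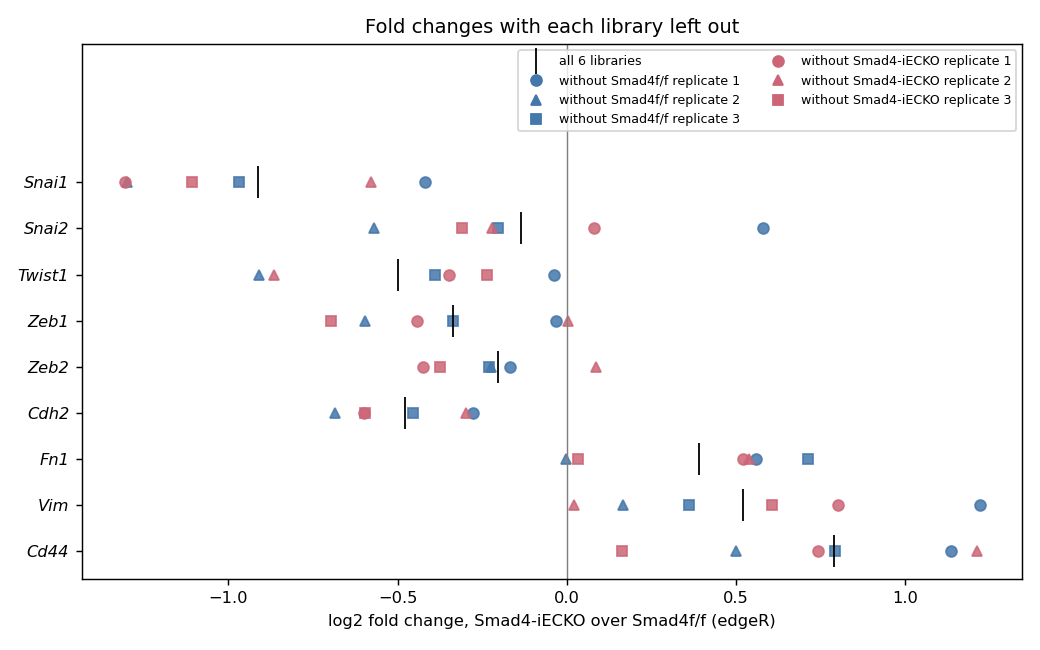
EdgeR log2 fold change of each tested gene with all 6 libraries (black bar) and with each library left out in turn (blue for Smad4f/f, red for Smad4-iECKO, with circles, triangles and squares for replicates 1, 2 and 3). Snai1, Twist1, Cdh2, Vim and Cd44 keep their side of 0, while Snai2, Zeb1, Zeb2 and Fn1 cross it in at least 1 fit.

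Leaving out each library in turn showed how much single libraries weighed. The log2 fold change of Cdh2 ran from -0.68 to -0.28, that of Snai1 from -1.31 to -0.42 and that of Twist1 from -0.91 to -0.04. Snai1 was at -0.42 and Twist1 at -0.04 without Smad4f/f replicate 1, the library with the highest level of both. Vim ran from 0.02 to 1.22, the latter without Smad4f/f replicate 1, and Cd44 from 0.16 to 1.21. Without Smad4f/f replicate 1 all 3 Smad4-iECKO levels of Vim lay above both remaining Smad4f/f levels (7.06% of all genes lay above, 7.68% below and 14.7% either way in that fit). Without Smad4-iECKO replicate 2 the same held for Cd44 (6.59% above, 6.73% below, 13.3% either way), and without Smad4f/f replicate 2 Snai1 and Cdh2 were lower in all 3 Smad4-iECKO libraries (5.84% above, 8.29% below, 14.1% either way). All 6 libraries were also scaled to the mean log2 level of the endothelial markers. Snai2 was then the 1 gene that did not overlap, being higher in every Smad4-iECKO library (2.19% above, 0.801% below, 2.99% either way).

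Smad4f/f replicate 1 held the highest Smad4f/f level for 8 of the 10 genes and replicate 2 the lowest for 9. The highest Smad4f/f level was 5.63 times the lowest for Snai2, 3.92 times for Vim and 1.09 times for Zeb2. The endothelial markers varied in the same order, at 8807, 1687 and 5330 CPM in Smad4f/f replicates 1, 2 and 3, a range of 5.22 times over all libraries. To describe such likeness, the log2 CPM of each gene was centred on its mean over the 6 libraries and set against the mean centred profile of each of 12 marker lists, as a root-mean-square distance in log2 units. Snai2 lay closest to the endothelial list (distance 0.13, against a spread of 0.73 of its own, with the pericyte and smooth muscle list at 0.25). Twist1 was also closest to the endothelial list (0.39, with the pericyte and smooth muscle list at 0.40). Vim was closest to the pericyte and smooth muscle list (0.22), ahead of the endothelial list (0.49). The libraries of a group share a genotype, and every profile shares the depths of the 6 libraries, so these distances are a description.

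**Figure D4:**
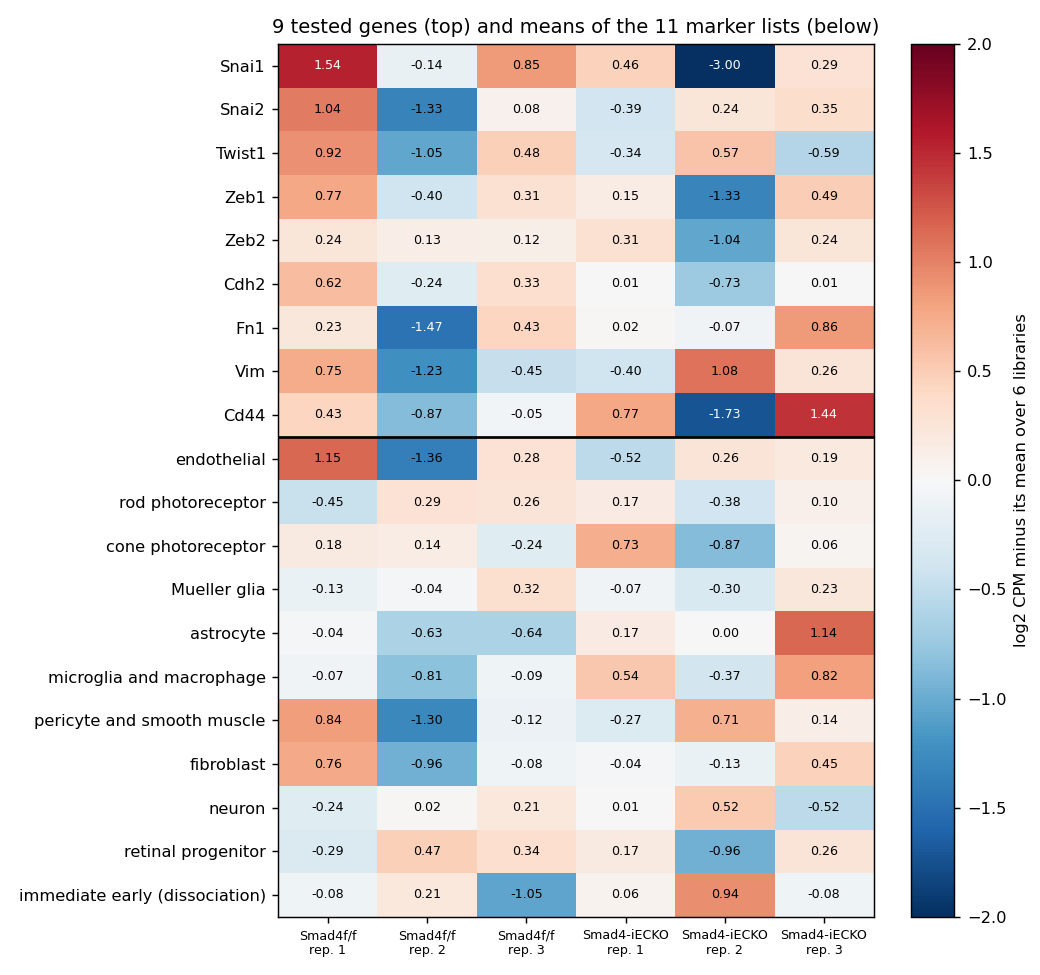
Log2 CPM minus its mean over the 6 libraries for the 9 tested genes (above the line) and, below it, the mean of the tested members of 11 marker lists (the erythroid list, with 1 tested member, is left out); colours saturate at 2 and -2. Snai2 follows the endothelial row and Vim the pericyte row, Zeb1, Zeb2 and Cd44 are low in Smad4-iECKO replicate 2, and the -3.00 of Snai1 there stands for 0 counts.

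Zeb2 and Zeb1 did not follow the endothelial list. Zeb2 was closest to the cone photoreceptor list (0.25) and the retinal progenitor list (0.28), with the endothelial list at 0.96. Zeb1 was closest to the cone list (0.53), with the endothelial list at 0.83. In Smad4-iECKO replicate 2, the library with the fewest counts, Zeb2 had a centred value of -1.04 and Zeb1 of -1.33. The cone list was at -0.87 there and the progenitor list at -0.96. Both lists had markers at 0 counts in that library, which lower a mean of log2 levels. Their summed levels there, 217 and 658 CPM, lay above the lowest library of each list (203 and 416 CPM). The cells behind Zeb1 and Zeb2 were not tested. Cdh2, an adhesion molecule of neurons and glia as well, was closest to the Mueller glia list (0.38), with the endothelial list at 0.69. The nearest distances of Cdh2 and Zeb1 were not much smaller than their own spreads of 0.43 and 0.69. Fn1 was closest to the fibroblast list (0.40, from the 6 of its 10 markers with enough counts), and next to the microglia list (0.44). Cd44 was closest to the microglia and macrophage list (0.65) and Snai1 to the cone list (1.14), beside spreads of their own of 1.05 and 1.44. Among 11999 genes with a mean of at least 5 CPM, the 2 nearest profiles were Usp15 and Prkdc for Zeb2 (0.026 and 0.034), Rps6ka3 and Kif18a for Zeb1 (0.069 and 0.074) and Pcyox1 and Mest for Cdh2 (0.077 and 0.095). They were Tor4a and Arhgef5 for Snai2 (0.080 and 0.089), Myadm and 4930578C19Rik for Fn1 (0.11 and 0.13) and Tbxa2r and Kifc1 for Vim (0.12 and 0.12). For the remaining genes they were Dok4 and Gmds for Twist1 (0.19 and 0.21), Snap23 and Tfrc for Snai1 (0.19 and 0.20) and Ppfibp2 and A2m for Cd44 (0.22 and 0.23). These are the closest of many genes over only 6 libraries, so small distances are built into the choice. Whether any pair shares regulation was not tested.

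Ratios of counts within a library, in which library scaling cancels, were compared for 4 pairs chosen after the levels were seen. A change from VE-cadherin (Cdh5) to N-cadherin is a usual readout of endothelial to mesenchymal transition. The log2 ratio of Cdh2 to Cdh5 was -0.98, 0.31 and -0.84 in the Smad4f/f libraries, against -0.47, -1.92 and -1.34 in the Smad4-iECKO libraries. The groups overlapped, with means of -0.50 ± 0.71 and -1.24 ± 0.73 (SD, n = 3 each, exact two-sided permutation p = 0.4). The highest ratio of N-cadherin to VE-cadherin was in Smad4f/f replicate 2, the library with the lowest summed endothelial level. Cdh5 is itself among the endothelial markers summed, so the ratio and that sum are not separate measures. The log2 ratio of Vim to Cdh5 had means of 0.38 ± 0.51 and 0.74 ± 0.52 (exact permutation p = 0.6), that of Fn1 to Cdh5 1.54 ± 0.32 and 1.82 ± 0.45 (exact permutation p = 0.5), and that of Zeb1 to Zeb2 -0.73 ± 0.54 and -0.86 ± 0.28 (exact permutation p = 0.8). The adjusted p was 0.8 for all 4 ratios by the exact permutation test, and 3 against 3 samples cannot go below 0.1.

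Other genes of the programme came from lists written out for this purpose. Of 23 tested further mesenchymal markers 0 passed edgeR's test in either direction, 17 had positive log2 fold changes and the median was 0.48, beside -0.017 over all genes. At an unadjusted p under 0.05 there were 4 of the 23 (Col1a2, Ctgf, Col1a1 and Tnc), beside 1.31% of all genes. The fibrillar collagen gene Col1a2 was at 26.2, 17.4 and 25.4 CPM in Smad4f/f and 44.0, 295 and 50.8 CPM in Smad4-iECKO, and Col1a1 at 6.47, 2.22 and 5.69 CPM against 9.22, 40.4 and 8.13 CPM. Both were higher in every Smad4-iECKO library, by far the most in replicate 2, and 3 of the 23 genes were placed so, beside 2.49% of all genes. The log2 fold changes were 2.48 (SE 0.71) for Col1a2 and 1.96 (SE 0.72) for Col1a1, and 0.79 (SE 0.33) for the third gene, Tnc (tenascin C, outside the rule for naming). The summed fibroblast markers were also highest in Smad4-iECKO replicate 2. That list holds Col1a1, Col1a2 and Col3a1 themselves, so its sum is no separate measure of fibroblasts. Its Dcn, Lum, Dpt, Mfap5, Ogn and Islr were at 0 in that library, and Pdgfra was at 67.4 CPM. The part of fibroblasts in the collagen levels was not tested. Ctgf, a matricellular gene that TGF-beta and YAP induce, had a log2 fold change of 1.499 (SE 0.53) and overlapping groups. Sparc, the most abundant gene of this list, had mean levels of 1227 ± 1001 CPM (Smad4f/f) and 1024 ± 357 CPM (Smad4-iECKO, SD, n = 3 each).

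Of 18 further transcription factors, 9 had enough counts for the test, 0 passed it, 5 were positive and the median log2 fold change was 0.22. Sox9, a factor of neural crest and glia, was at 10.7, 25.3 and 22.8 CPM in Smad4f/f and 31.99, 26.5 and 34.9 CPM in Smad4-iECKO. Klf8 was at 3.15, 2.55 and 2.54 CPM and at 4.22, 5.58 and 4.86 CPM. Both were higher in every Smad4-iECKO library, and they were the 2 of the 9 genes so placed, beside 2.49% of all genes. At an unadjusted p under 0.05 there were 0 of the 9. The homeobox factor Prrx1 had a log2 fold change of 0.70 (SE 0.46). Tcf4, an E protein and the most abundant of the list, was at 485 ± 110.1 and 381 ± 127 CPM (SD, n = 3 each). Of 17 tested endothelial and junction genes, which fall in a completed transition, 13 were negative, the median was -0.36 and 0 passed the test. At an unadjusted p under 0.05 there were 2 of the 17 (Ocln and Tek), beside 1.31% of all genes. The tight junction gene Ocln was at 122.5, 18.8 and 65.5 CPM in Smad4f/f and 17.0, 27.0 and 29.3 CPM in Smad4-iECKO, and the angiopoietin receptor gene Tek had a log2 fold change of -1.35 (SE 0.57). For both, Smad4f/f replicate 2 lay among the Smad4-iECKO libraries. The endothelial transcription factor gene Fli1 had a log2 fold change of -0.85 (SE 0.61). Kdr, the most abundant of them, was at 840.4 ± 427 and 775 ± 207 CPM (SD, n = 3 each).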

How the data were processed

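RNA of 6 samples of isolated retinal endothelial cells was made into libraries with a TruSeq RNA v2 kit, as the labels' protocols state. STAR, DESeq2 and mm10 are named in the submitters' processing notes, without versions. How reads were counted, and with which annotation, is not given in the sources used here. The authors deposited read counts per gene as whole numbers, not normalized, in 18 columns. They also deposited a comparison table. Per the file headers it gives a mean normalized signal, a log2 fold change and its error, a score for the test, and a p-value before and after adjustment.

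Samples were grouped by the genotype label. Replicate numbers follow accession order and pair nothing. The 3 columns of each sample were identical, and 1 was used. The main fit was edgeR 4.0.16 (R 4.3.3, quasi-likelihood) with TMM scaling, filterByExpr (minimum count 10, minimum total 15) and Benjamini-Hochberg adjustment over 14362 genes, threshold 0.05. The SE is the log2 fold change divided by the square root of F. Alternatives used DESeq2 1.42.0, voom in limma 3.58.1, other scalings and filters, thinning, the title prefix, and leaving out libraries. EdgeR with TMM scaling, DESeq2 and voom were tested on simulated counts, and the other alternatives were not. The log2 CPM used for likeness had a prior count of 2. Coordinates are from GENCODE M21 (mm10), and promoters from RefSeq (GRCm38.p6). Figures were drawn with matplotlib 3.10.9.

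The 10 genes and all lists were chosen with earlier results of these data known. The rule for naming took all 10 genes, from each other list of the programme the 3 smallest p-values and the most abundant gene, and from each marker list the most abundant one, some of which are not reported here. Genes listed at 0 were named after their values were seen. Intervals and floors (3 counts) cover counting error only.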

Additional observations from a re-analysis of the deposited data

How the results depend on the processing

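Over the 20 alternative fits and scalings the signs of Cd44 (positive), Cdh2, Snai1 and Twist1 (negative) did not turn where these genes were tested. Thinning to the smallest library left 6 of the 10 genes testable, and Snai1, Snai2 and Twist1 have no value there. Scaling to the endothelial list moved the median of all genes from -0.017 to -0.28, so its fold changes are to be read against that shift. With it Snai2 turned to 0.21 and its 3 Smad4-iECKO levels lay above the Smad4f/f levels (1 gene without overlap, beside 2.99% of all genes). Snai2 also turned with limma-voom (0.29), with limma-voom and sample weights (0.22) and with the title prefix as a block (0.026). Sample weights turned Zeb1 (0.062) and Zeb2 (0.089). With title prefix 38 only, Vim turned to -0.32 and Zeb2 to 0.081. In that subset 4 genes had groups that did not overlap, beside 31.0% of 14600 genes. With single libraries left out, Snai2 ran from -0.57 to 0.58, Zeb1 from -0.70 to 0.0037, Zeb2 from -0.42 to 0.087 and Fn1 from -0.0037 to 0.71. The median of the tested genes then ran from -0.57 to 0.0037. The number without overlap ran from 0 to 2, beside 12.7% to 14.7% of all genes tested. The cause of these turns was not tested.

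The count of genes called over the whole table was 0 in the main fit, 12 with DESeq2 and 8 with limma-voom and sample weights. With DESeq2 on all 18 columns it was 2235 of 19650 genes (11.4%), and 1 of the 10 genes (Cdh2) was called. The standard error of Cdh2 was 0.17 there, against 0.39 with DESeq2 on 1 column per sample. The title prefix as a block called 0 genes, and the 3 columns of a sample cannot serve as replicates. Depth limited Snai1, Twist1, S100a4 and Cd44 most, with 0 to 5 counts each in Smad4-iECKO replicate 2.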

Other observations

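Genes that bind or anchor the marker proteins, and the TGF-beta and BMP inputs, had 0 calls by edgeR in either direction (0 at an unadjusted p under 0.05 in both lists). Of 20 tested partners 12 had positive log2 fold changes, with a median of 0.14 beside -0.017 over all genes. Spp1, which encodes osteopontin, a ligand of CD44 that macrophages also make, was at 0.946, 0.165 and 0.598 CPM in Smad4f/f and at 2.72, 0 and 6.14 CPM in Smad4-iECKO. Like Cd44 it was higher in both prefix 38 Smad4-iECKO libraries than in any Smad4f/f library, and its 0 counts in Smad4-iECKO replicate 2 allow up to 1.39 CPM. Plec, the cytolinker that binds vimentin filaments, was at 740, 243 and 664 CPM in Smad4f/f and at 534, 1794 and 802 CPM in Smad4-iECKO, and non-muscle myosin Myh9 at 1455, 336 and 983 CPM against 876, 2850 and 1261 CPM. Both had their highest level in Smad4-iECKO replicate 2 and their lowest in Smad4f/f replicate 2, as Vim did. Synm, another intermediate filament gene, had a log2 fold change of -0.88 (SE 0.53).

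Of 17 tested TGF-beta and BMP inputs 9 were positive, with a median log2 fold change of 0.049. The ligand gene Tgfb3 was at 9.46, 13.1 and 14.7 CPM in Smad4f/f and at 17.9, 25.1 and 15.3 CPM in Smad4-iECKO, higher in every Smad4-iECKO library, with a log2 fold change of 0.63 (SE 0.38). It was the 1 of the 17 genes so placed, beside 2.49% of all genes. Tgfb1 was at 26.0, 8.72 and 36.5 CPM in Smad4f/f and at 20.1, 70.7 and 41.1 CPM in Smad4-iECKO, with overlapping groups. Ski, a repressor of SMAD signalling, had a log2 fold change of 0.46 (SE 0.41). Bmpr2, a BMP receptor gene and the most abundant of the list, was at 411, 368 and 513 CPM against 392, 97.1 and 541 CPM, low only in Smad4-iECKO replicate 2, the library in which Zeb1 and Zeb2 were low too.

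Of the most abundant markers of the cell type lists given here, all but Jun overlapped between the groups. The cone gene Opn1sw ran from 72.5 to 166 CPM over the 6 libraries. The glial gene Glul ran from 178 to 662 CPM, the microglial receptor gene Csf1r from 8.81 to 22.4 CPM and the pericyte gene Rgs5 from 257 to 1488 CPM. The erythroid gene Alas2 ran from 0 to 39.9 CPM. Jun, an immediate early gene that rises when tissue is dissociated, was at 105 to 124 CPM in Smad4f/f and 136 to 243 CPM in Smad4-iECKO, with the highest level in replicate 2 (log2 fold change 0.56, SE 0.32, not called by edgeR). It was the 1 of 9 tested immediate early genes higher in every Smad4-iECKO library, beside 2.49% of all genes.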
